A study of Mus musculus with 12 samples.

Results

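Indian hedgehog and parathyroid hormone-related protein (PTHrP) form a signalling loop of the growth plate, and the 9 genes described here are the parts of that loop, taken by symbol from the deposited table: the hedgehog ligand gene Ihh, the receptor genes Ptch1, Smo and Hhip, the transcription factor genes Gli1, Gli2 and Gli3, the PTHrP gene Pthlh and its receptor gene Pth1r. They are 9 of the 28244 genes listed, and all 9 were found. RNA was sequenced from 12 pellet libraries of mesenchymal progenitors taken from the heads and condyles of femurs and tibiae of C57/BL6 pups of 5 or 6 days, 3 libraries at each of 4 time points. All pellets spent 7 days in chondrogenic medium. The D7 libraries had no osteogenic medium, and the D8, D10 and D28 libraries followed with 1, 3 and 21 days of it. The labels name no transgene, deletion or drug in any group, and there was no pellet kept in chondrogenic medium beyond D7 among these libraries, so days in culture and osteogenic medium cannot be told apart.

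In the growth plate, Indian hedgehog is made by prehypertrophic chondrocytes as they leave the cell cycle. It binds Patched 1, which otherwise holds Smoothened inactive, and the released Smoothened acts at the primary cilium on the Gli proteins, of which Gli1 and Gli2 mainly activate and Gli3 mainly represses transcription. Ptch1, Gli1 and Hhip are themselves induced by the signal, Patched 1 and Hhip proteins bind and restrain the ligand, and the transcripts are therefore commonly used as readouts of the pathway. Hedgehog signalling also maintains PTHrP in cells near the end of the bone. PTHrP acts on the receptor Pth1r, raises cyclic AMP and delays hypertrophy, which in turn limits the number of cells that make Indian hedgehog.

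The value per gene and library is the log2 of an equalized read count plus 1, called the level below, and a difference of 1 between levels is a doubling. A gene was called when limma gave a Benjamini-Hochberg adjusted p under 0.05 over the 17674 genes tested and the time points differed by at least 1 on the log2 scale. Nothing in the labels says that the 3 libraries of a time point came from separate cell preparations, so the p-values measure only the spread between these libraries. Equalization removed the library totals. Relative depth, read from low values, was 0.730 to 1.05 in the D10 libraries and up to 1.31 in those of D28, and a single read stood at a level between 0.50 and 1.81. In bulk RNA, fewer cells that make a transcript and less transcript per cell cannot be told apart. The chondrocyte identity of the pellets was checked on Sox9, the transcription factor of cartilage, which stood at 12.38 ± 0.30 at D7 and 12.11 ± 0.18 at D8, followed by 12.44 ± 0.20 at D10 and 12.25 ± 0.26 at D28 (SD, n = 3). The summed level of 7 chondrocyte markers lay between 21.23 and 21.24 at D7, between 21.16 and 21.34 at D8, between 20.07 and 20.13 at D10 and between 21.18 and 21.22 at D28. Col2a1, the main cartilage collagen gene, sets this sum, and at D7, D8 and D28 it stood at 20.92 in every library, the largest value that equalization gives, so the sum cannot show a change between those time points. Col2a1 was at 19.87 in the D10 libraries. Single markers moved more than the sum, and from D7 to D10 the mean level of Acan, the aggrecan gene, went from 17.62 to 16.45 and that of the link protein gene Hapln1 from 14.91 to 12.78.

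Promoters are shown for Ihh and for Ptch1 and Hhip, the ligand gene and the pair of target genes that parted at D28. Each is the 250 bases before the start of a RefSeq transcript, read on the gene's strand in GRCm38.p6. The Ihh window is chr1:74951673-74951922 on the minus strand, the Ptch1 window chr13:63565736-63565985 on the minus strand and the Hhip window chr8:80058009-80058258 on the minus strand. None of these windows overlapped an annotated exon, and the Ptch1 window lies within the gene's span, upstream of a shorter transcript. Capitals mark the GC box GGGCGG on either strand and, in Hhip, the cyclic AMP response element TGACGTCA.
Ihh: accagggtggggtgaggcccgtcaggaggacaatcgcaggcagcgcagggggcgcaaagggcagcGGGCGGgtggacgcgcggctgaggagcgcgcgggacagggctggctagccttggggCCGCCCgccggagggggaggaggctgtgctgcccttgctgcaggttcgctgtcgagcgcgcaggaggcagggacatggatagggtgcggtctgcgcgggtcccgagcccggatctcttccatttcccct
Ptch1: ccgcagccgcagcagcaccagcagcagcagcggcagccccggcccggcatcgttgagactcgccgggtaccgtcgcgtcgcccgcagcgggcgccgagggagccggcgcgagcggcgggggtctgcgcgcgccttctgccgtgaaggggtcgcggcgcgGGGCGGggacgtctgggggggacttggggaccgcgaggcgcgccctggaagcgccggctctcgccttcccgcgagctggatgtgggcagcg
Hhip: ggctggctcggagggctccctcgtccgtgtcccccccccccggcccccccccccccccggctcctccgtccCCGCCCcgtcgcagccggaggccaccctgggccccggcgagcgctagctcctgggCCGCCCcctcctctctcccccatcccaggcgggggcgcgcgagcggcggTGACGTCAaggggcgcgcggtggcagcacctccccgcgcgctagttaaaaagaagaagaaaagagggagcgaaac

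RefSeq windows were found for 8 of the 9 genes, 10 windows in all, and the entry for Gli1 was not in the table used. The Gli consensus GACCACCCA, searched on both strands, was in 0 of the 10 windows and in 0.225% of 32851 windows of all genes. With 1 base free it was again in 0 of the 10, against 5.79% of all windows. The GC box was in 8 of the 10 windows and in 32.7% of all windows. The windows of these genes held 56.0% to 78.4% G and C, against a median of 52.4%, and between 3 and 41 CpG dinucleotides, against a median of 6. The cyclic AMP response element occurred in the Hhip window alone, with its first base 75 bases before the transcript start, and in 1.55% of all windows. The searches for the GC box and the cyclic AMP element were chosen after the values had been seen. A match is a description of letters in this window, and a missing match says only that the letters are not there.

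Ihh encodes the ligand and lies on chromosome 1 of GRCm38 at 74945315 to 74951672. It changed more than any other of the 9 genes between D7 and D10 and between D10 and D28. Its levels in the 3 libraries were 7.94, 7.88 and 7.39 at D7, 5.95, 5.29 and 6.47 at D8, 0.00, 2.84 and 2.44 at D10, and 9.27, 7.68 and 6.71 at D28. The D10 libraries therefore held 0, 4 and 3 reads of Ihh, and the library with 0 reads was the shallowest of the 12. No D10 level reached the lowest D8 level, no D8 level reached the lowest D7 level, and the D7 libraries lay within the wide range of D28.

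Between D8 and D10, Ihh fell by 4.14 on the log2 scale (SE 0.66, adjusted p = 0.00033, limma). With every value under the 3-read level of 2.87 raised to that level, because the D10 levels rest on so few reads, D10 was still 8.16-fold below D8 (adjusted p = 0.0058) and 29.0-fold below D7 (adjusted p = 0.00024). From D10 to D28 the gene rose by 6.13 (SE 0.66, adjusted p = 1.6e-06), and 32.2-fold with the low values raised (adjusted p = 0.00011). The first day in osteogenic medium gave a difference of -1.83 (SE 0.66, adjusted p = 0.062), which was not called. Under the study's own rule, an unadjusted pairwise test with the same fold threshold, this difference was called. The limma result also depended on single libraries elsewhere in the series, since the adjusted p was 0.013 without D10 replicate 1, 0.047 without D10 replicate 2, 0.036 without D28 replicate 1 and 0.047 without D28 replicate 3.

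Ihh at D28 was not separable from D7. The difference was 0.15, with a 95% interval from -1.26 to 1.56 (adjusted p = 0.89), so the return to the D7 level is known only to within more than a doubling either way. Against D8 it was higher by 1.98 (SE 0.66, adjusted p = 0.025). This call was lost under the study's own rule, with a pseudocount of 0.1 (adjusted p = 0.19), without D28 replicate 1 (1.29, adjusted p = 0.14), without D8 replicate 1 (adjusted p = 0.056) and without D8 replicate 2 (adjusted p = 0.096). D28 replicate 1 held the highest D28 level for 8 of the 9 genes, Smo being the exception.

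**Figure D1:**
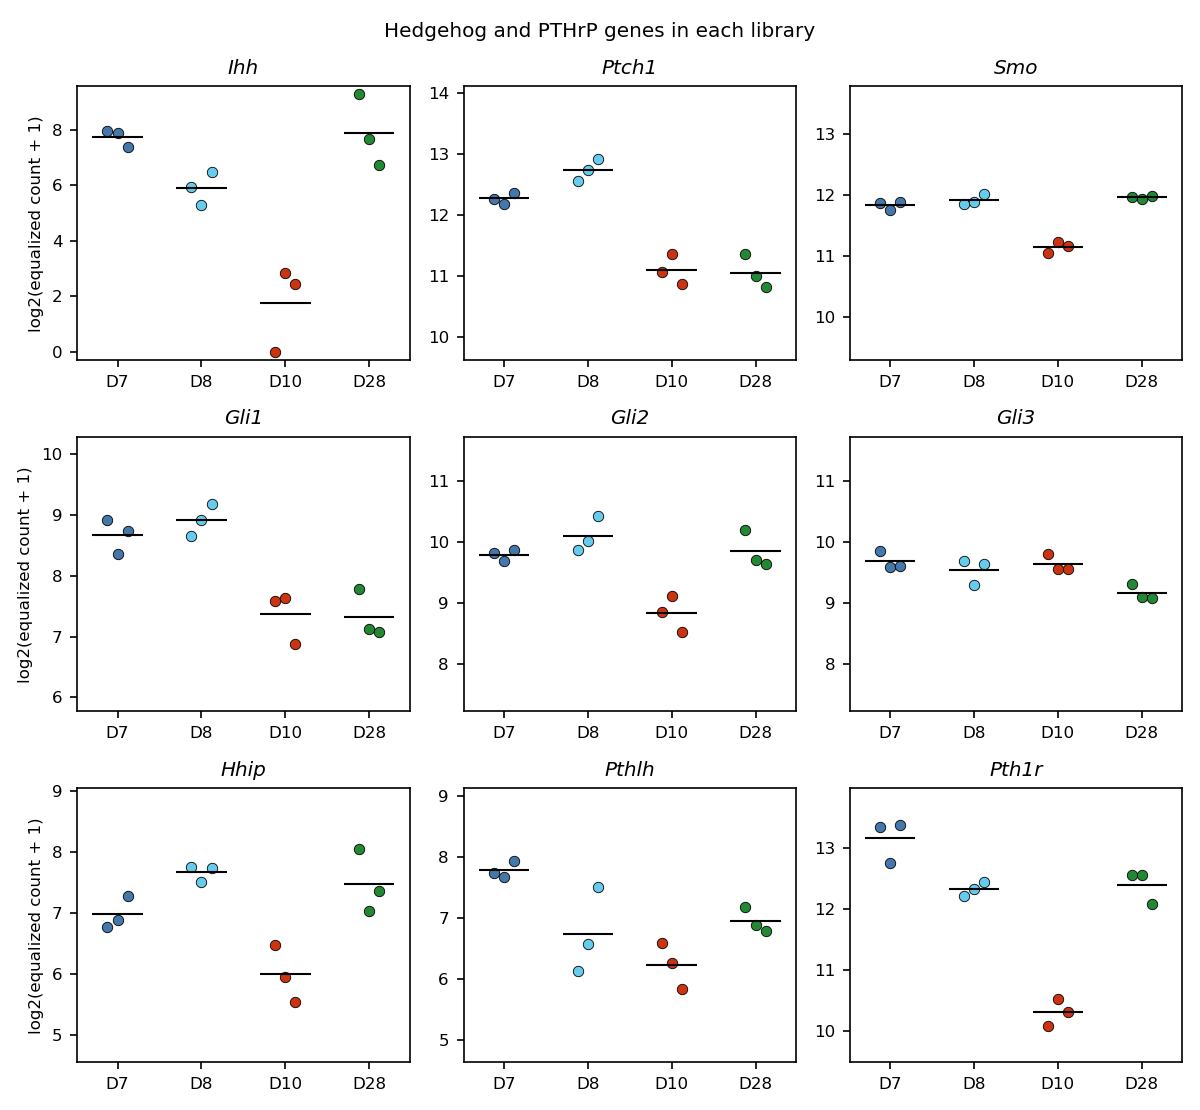
Level of each of the 9 genes in every library, as log2(equalized count + 1), by time point. Points are libraries, horizontal lines are means of 3, and the vertical range differs between panels. Ihh at D10 sits between 0.00 and 2.84, below every other Ihh value, and the D10 and D28 points of Ptch1 and of Gli1 overlap.

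Ptch1, the receptor of the ligand and a target of the pathway, lies on chromosome 13 at 63508328 to 63573598. Its levels were 12.27, 12.19 and 12.36 at D7, 12.56, 12.73 and 12.92 at D8, 11.08, 11.36 and 10.88 at D10, and 11.36, 11.00 and 10.82 at D28. All D8 libraries were above all D7 libraries, and all D10 and D28 libraries were below both. The D8 difference from D7 was 0.46 (SE 0.15, adjusted p = 0.035, limma), under the fold threshold and therefore not called. Between D8 and D10, Ptch1 fell by 1.63 (SE 0.15, adjusted p = 3.1e-06). It did not rise again, since D28 differed from D10 by -0.046 (95% interval from -0.36 to 0.27, adjusted p = 0.82) and from D7 by -1.22 (SE 0.15, adjusted p = 1e-05), the latter a call. The sign of the small difference between D10 and D28 turned to 0.084 when the unlogged values were scaled by median of ratios.

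Hhip, a membrane protein that binds hedgehog ligands and is also a target, lies on chromosome 8 at 79965851 to 80058006. Its levels were 6.77, 6.87 and 7.28 at D7, 7.76, 7.51 and 7.73 at D8, 6.47, 5.95 and 5.54 at D10, and 8.05, 7.02 and 7.36 at D28. The D10 libraries were the lowest and did not overlap any other time point, and the D28 libraries spanned the D8 ones. All D8 libraries were above all D7 libraries. Hhip fell by 1.68 between D8 and D10 (SE 0.28, adjusted p = 4e-04, limma) and rose from D10 to D28 by 1.49 (SE 0.28, adjusted p = 0.00029). Its difference from D7 was 0.69 at D8 (adjusted p = 0.088) and 0.51 at D28 (95% interval from -0.080 to 1.09, adjusted p = 0.17), neither of them called. At D10 it differed from D7 by -0.98 (adjusted p = 0.0093), just short of the fold threshold, and it passed that threshold with median of ratios scaling (-1.06) and without D7 replicate 1, D7 replicate 2 or D10 replicate 1.

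Smo, the signal transducer that Patched 1 restrains, lies on chromosome 6 at 29735503 to 29761365. Its libraries agreed closely, with levels of 11.87, 11.76 and 11.89 at D7, 11.85, 11.89 and 12.03 at D8, 11.05, 11.24 and 11.17 at D10, and 11.97, 11.94 and 11.99 at D28. The D10 libraries stood apart below the rest. D8 overlapped D7 and D28, while all D28 libraries were above all D7 libraries. D10 differed from D8 by -0.77 (SE 0.091, adjusted p = 3.3e-05, limma) and D28 from D10 by 0.81 (SE 0.091, adjusted p = 2.2e-06). Both differences were well beyond the spread between libraries and under the fold threshold. D28 differed from D7 by 0.13 (95% interval from -0.062 to 0.32, adjusted p = 0.29).

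Gli1, a transcriptional activator whose own transcription is a standard readout of hedgehog signalling, lies on chromosome 10 at 127329882 to 127341974. Its levels were 8.91, 8.35 and 8.73 at D7, 8.65, 8.92 and 9.17 at D8, 7.58, 7.63 and 6.87 at D10, and 7.77, 7.12 and 7.07 at D28. The libraries formed 2 bands, D7 with D8 above and D10 with D28 below, with no overlap between the bands. Gli1 fell by 1.55 between D8 and D10 (SE 0.24, adjusted p = 0.00025, limma) and D28 differed from D7 by -1.34 (SE 0.24, adjusted p = 0.00038), a call. The difference between D28 and D10 was -0.043 (95% interval from -0.55 to 0.47, adjusted p = 0.90), and 0.087 with median of ratios scaling. Exons of Arhgap9 overlap those of Gli1 on the opposite strand. The kit kept strand, but whether the counting used it is not given in the sources used here. The level of Arhgap9 itself was 4.19 ± 0.22 at D7 and 2.90 ± 0.39 at D28 (SD, n = 3).

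Gli2, the main activator that responds to Smoothened, lies on chromosome 1 at 118834132 to 119053619. Its levels were 9.80, 9.68 and 9.86 at D7, 9.86, 10.00 and 10.41 at D8, 8.85, 9.10 and 8.52 at D10, and 10.18, 9.70 and 9.64 at D28. As with Smo and Hhip, D10 was the low time point. The D28 libraries overlapped those of D7 and of D8. The D7 libraries (at most 9.863) lay just below the D8 libraries (at least 9.865). Gli2 fell by 1.27 between D8 and D10 (SE 0.18, adjusted p = 0.00011, limma) and rose from D10 to D28 by 1.02 (SE 0.18, adjusted p = 0.00016). The rise was at the fold threshold, and it was no longer called without D10 replicate 3 (0.86) or without D28 replicate 1 (0.85). At D10 Gli2 differed from D7 by -0.96 (adjusted p = 0.00043), and it was called with median of ratios scaling (-1.03), without D7 replicate 2 (-1.01) and without D10 replicate 2 (-1.10).

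Gli3, which supplies most of the repressor form in limb cartilage, lies on chromosome 13 at 15463235 to 15730026. It moved least of the 3 Gli genes. Its levels were 9.86, 9.59 and 9.61 at D7, 9.69, 9.29 and 9.65 at D8, 9.80, 9.56 and 9.57 at D10, and 9.32, 9.11 and 9.09 at D28. The D7, D8 and D10 libraries overlapped, and the D28 libraries lay lower with the highest of them inside the D8 range. D10 differed from D7 by -0.043 (95% interval from -0.32 to 0.24, adjusted p = 0.83, limma), an interval that lies within the fold threshold. D28 differed from D7 by -0.51 (SE 0.13, adjusted p = 0.0064) and from D10 by -0.47 (SE 0.13, adjusted p = 0.0074), neither of them called.

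**Figure D2:**
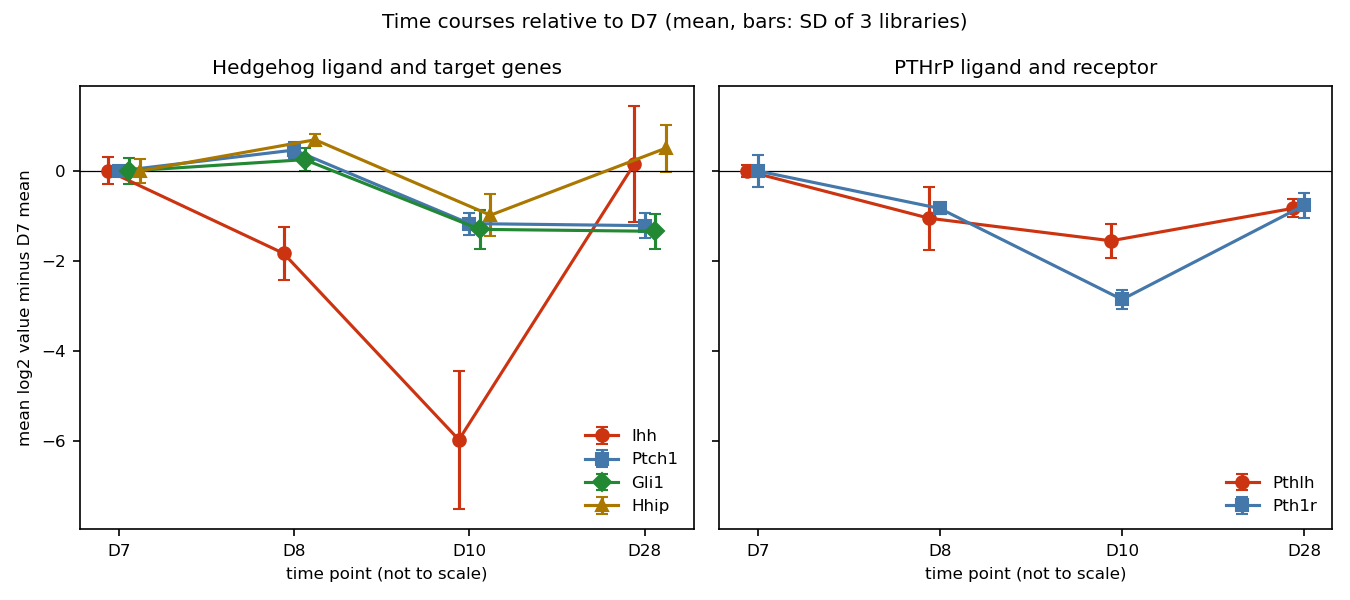
Mean level of the hedgehog ligand and target genes (left) and of the PTHrP ligand and receptor genes (right) relative to their D7 mean, in log2 units, with time points at equal spacing. Bars are the SD of 3 libraries. At D28 Ihh is back near its D7 mean while Ptch1 and Gli1 are at -1.22 and -1.34 and Hhip is at 0.51, and Pth1r is at -2.86 at D10.

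Since the ligand and its targets were read in the same libraries, their levels were also set against each other within each library. These pairs of genes were chosen after their levels had been seen, and the differences are given as a description. Ptch1 stood above Ihh by 4.31 to 4.97 on the log2 scale at D7, by 6.45 to 7.45 at D8 and by 2.09 to 4.10 at D28, and these 3 time points did not overlap. The D28 libraries thus had the least Ptch1 for their Ihh. At D10, where Ihh rests on 0 to 4 reads, only a lower bound can be given, and with Ihh raised to the 3-read level Ptch1 stood above it by at least 8.00 to 8.49. Gli1 minus Ihh ran from 0.47 to 1.34 at D7 and from -1.49 to 0.36 at D28. The targets also parted from each other. Hhip minus Ptch1 lay between -5.50 and -5.09 at D7, between -5.22 and -4.80 at D8, between -5.41 and -4.60 at D10 and between -3.98 and -3.31 at D28. The first 3 time points shared a range and D28 was above all of them, by 1.72 over the D7 mean. Hhip minus Gli1 ran from -2.14 to -1.46 at D7, from -1.44 to -0.89 at D8 and from -1.68 to -1.11 at D10. It ran from -0.091 to 0.29 at D28, again above the rest, and D8 lay just above D7. These differences compare each gene with itself across time, since transcript lengths differ between genes.

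Pthlh, the gene of the PTHrP ligand, lies on chromosome 6 at 147252101 to 147264183. Its levels were 7.74, 7.68 and 7.93 at D7, 6.12, 6.57 and 7.50 at D8, 6.58, 6.27 and 5.83 at D10, and 7.18, 6.89 and 6.79 at D28. D7 was above every other library, and D8 spread over most of the remaining range. D8 overlapped D10 and D28, while all D10 libraries were below all D28 libraries. Pthlh fell by 1.55 from D7 to D10 (SE 0.30, adjusted p = 0.00058, limma). The first day in osteogenic medium gave a difference of -1.05 (SE 0.30, adjusted p = 0.019), a call that was fragile. It was lost without D7 replicate 1 (adjusted p = 0.053), D7 replicate 3 (-0.98), D8 replicate 1 (-0.75) or D8 replicate 2 (-0.97), with low values raised (adjusted p = 0.055) and under the study's own rule. From D10 to D28 the difference was 0.72 (SE 0.30, adjusted p = 0.051), and D28 differed from D7 by -0.83 (SE 0.30, adjusted p = 0.038), neither of them called.

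Pth1r, the receptor of PTHrP and of parathyroid hormone, lies on chromosome 9 at 110722085 to 110747145. Its levels were 13.35, 12.77 and 13.39 at D7, 12.23, 12.33 and 12.45 at D8, 10.09, 10.52 and 10.32 at D10, and 12.57, 12.56 and 12.08 at D28. The D10 libraries were far below all others, D8 and D28 overlapped, and D7 was above both. Pth1r fell by 2.02 between D8 and D10 (SE 0.17, adjusted p = 1.5e-06, limma). D10 differed from D7 by -2.86 (adjusted p = 8.4e-09), a 7.24-fold change. From D10 to D28 it rose by 2.09 (SE 0.17, adjusted p = 7.6e-08). D28 differed from D7 by -0.77 (adjusted p = 0.0023), which was not called. The D8 difference from D7 of -0.83 (adjusted p = 0.0027) was under the fold threshold and passed it without D7 replicate 2 (-1.04). An exon of Myl3 on the opposite strand overlaps Pth1r, and the level of Myl3 was 4.39 ± 0.59 at D7 against 2.46 ± 0.04 at D10 (SD, n = 3).

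To compare the genes with each other, equalized counts were divided by the total exon length in kilobases before the log2 transform. On that scale the mean D7 levels were 11.62 for Pth1r, 9.35 for Smo, 8.45 for Ptch1, 7.09 for Pthlh, 7.01 for Gli2, 6.44 for Gli3, 6.36 for Gli1, 6.14 for Ihh and 3.88 for Hhip. The PTHrP receptor gene was thus the most abundant of the 9 per length at D7 and Hhip the least. At D10 the per-kilobase level was 8.77 ± 0.21 for Pth1r, 8.67 ± 0.09 for Smo and 0.96 ± 0.85 for Ihh (SD, n = 3). Pth1r had come down into the range of Smo, and Ihh had become the lowest of the 9.

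Of the 9 genes, 6 had their lowest mean at D10, and Ptch1, Gli1 and Gli3 at D28. All 9 passed the filter on low values. In D8 against D7, 1 of the 9 was called, Pthlh, which was lower, beside 7.04% of all genes tested (3.23% called higher and 3.81% called lower). In D10 against D8, 6 were lower (Ihh, Ptch1, Gli1, Gli2, Hhip and Pth1r) and 0 higher, beside 9.66% of all genes called, 4.08% higher and 5.58% lower. In D10 against D7, 5 were lower and 0 higher, beside 18.9% of all genes called, 8.50% higher and 10.4% lower. The median difference of the 9 in this comparison was -1.17, and that of all genes was 0.053.

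The later comparisons went the other way for part of the group. In D28 against D10, 4 of the 9 were higher (Ihh, Gli2, Hhip and Pth1r) and 0 lower, beside 27.5% of all genes called, 13.8% higher and 13.7% lower, with a median of 0.81 for the 9 and -0.10 for all genes. In D28 against D7, Ptch1 and Gli1 were the 2 called, both lower, beside 17.3% of all genes, 8.63% higher and 8.66% lower. In D28 against D8, Ihh was higher and Ptch1 and Gli1 lower, 3 of the 9, beside 19.7% of all genes, 10.0% higher and 9.70% lower. Counts of 2 and 3 in 9 beside these backgrounds are no result about the group. These comparisons share libraries and are not independent of each other.

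**Figure D3:**
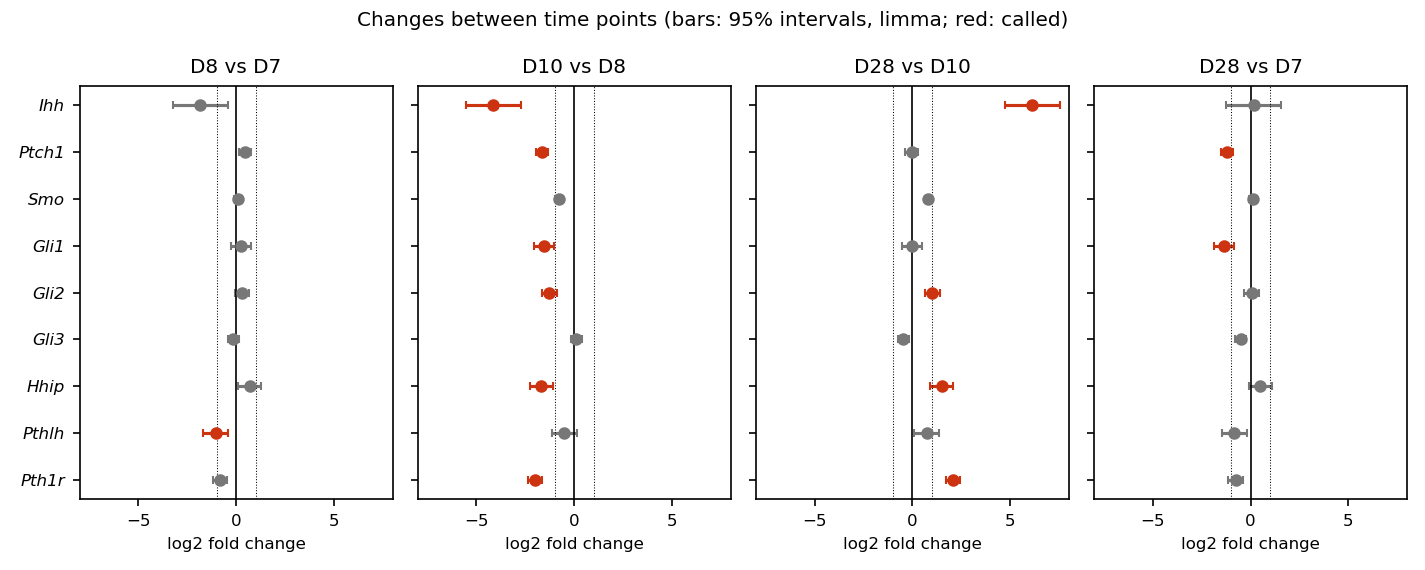
Difference in level between time points for each of the 9 genes, in log2 units, with 95% intervals from limma. Red points are called, and dotted lines mark the fold threshold of 1 in either direction. In D10 vs D8 6 genes are called lower, and in D28 vs D10 the intervals of Ptch1 and Gli1 are the ones centred close to 0.

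The genes that make, carry and receive the ligand were read from a list of 32, of which 31 were tested. In D8 against D7, limma called 0 of them, beside 7.04% of all genes. An unadjusted limma p under 0.05 was reached by 6, and the study's own rule called 0. The list's median was -0.13, and that of all genes was 0.026. In D10 against D7, the median was -0.36, beside 0.053 for all genes. Of all genes, 8.50% were called higher and 10.4% lower, and of this list 0 were higher and 7 lower. Boc and Gas1, co-receptors that help present the ligand to Patched 1, were among them, with differences of -1.76 for Boc (SE 0.15, adjusted p = 3.1e-07, limma) and -1.13 for Gas1. The glypican genes Gpc3 and Gpc4 fell as well, with differences of -2.31 and -1.08. Scube2 and Scube3, of a family of secreted proteins that help release lipid-bearing hedgehog from cells, had differences of -3.75 and -2.61, although Scube2 was at a mean of 1.76 at D10, where it rests on few reads. Scube2, Gas1, Gpc3 and the D10 value of Gpc4 were chosen for naming after their values had been seen, as were all list genes outside the naming rule.

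From D10 to D28, 7 genes of this list rose and 2 fell, beside 13.8% of all genes called higher and 13.7% lower. Among the rises were Scube2 (3.09), Gpc3 (2.60), Boc (2.33), Gpc4 (2.30), Disp1 (1.12) and Evc (1.03), and the falls were Lrp2 (-1.89) and Gpr161 (-1.37), the latter a ciliary receptor that restrains the pathway. Against D7, D28 was higher for Gpc4 (1.22, SE 0.14, adjusted p = 5.1e-06, limma). It was lower for Scube3 (-2.21), for Hhat (-1.42), whose enzyme attaches palmitate to the ligand, and for the co-receptor gene Cdon (-1.01).

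Most transport genes of the primary cilium, where Smoothened and the Gli proteins act, were not called, and neither were most of all genes tested. Of 18 tested, limma called 0 in D8 against D7 and 0 in D10 against D8, beside 7.04% and 9.66% of all genes. Counts of 0 in 18 beside these shares are no result about the list. An unadjusted limma p under 0.05 was reached by 9 and 10, and the study's own rule called 0 in either. Ofd1, a basal body protein gene, rose by 1.03 from D7 to D10 (SE 0.19, adjusted p = 4e-04, limma), which came to 0.96 with median of ratios scaling and 0.92 without D7 replicate 1, both under the threshold. Inpp5e, a ciliary phosphatase gene, was higher at D28 than at D7 by 1.31 (SE 0.13, adjusted p = 1.8e-06). In D10 against D7 the median of the list was 0.062, near that of all genes.

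Target genes reported in various tissues, 20 besides the 9, went both ways. From D7 to D10, 3 rose and 6 fell, beside 8.50% of all genes called higher and 10.4% lower, and the list's median was -0.22. The rises were the forkhead genes Foxf1 (2.29, SE 0.21, adjusted p = 4.6e-07, limma), Foxc2 (1.07) and Foxl1 (2.45). Among the falls were Boc, Gas1, the somite and cartilage factors Nkx3-2 (-1.44) and Pax1 (-1.48), and Bmp4 (-1.12). At D28 against D7, 4 were higher and 4 lower, beside 8.63% of all genes called higher and 8.66% lower. Bmp4 (1.81), Foxf1 (1.43) and Osr1 (1.34) were among the higher ones. Pax1 (-1.45), Pax9 (-1.42), Foxf2 (-1.21) and Cdon were lower. Foxf2 was at -0.96 without D7 replicate 3, and Foxc2 at D10 was at 0.86 without D10 replicate 1 and 0.94 without D7 replicate 2. Boc, Gas1 and Cdon are counted in this list and in that of ligand reception. The list does not set apart targets that the signal raises from those it lowers, so its counts give no direction of signalling.

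On the PTHrP side, 26 of 27 further ligand, relay and effector genes of the PTH receptors were tested. In D8 against D7, limma called 0, beside 7.04% of all genes. An unadjusted limma p under 0.05 was reached by 8, and the study's own rule called 0. From D7 to D10, 2 rose and 5 fell, beside 8.50% of all genes called higher and 10.4% lower. The list's median of 0.011 was close to that of all genes (0.053). The falls were Ramp2 (-1.96, SE 0.24, adjusted p = 9e-06, limma), Arrb1 (-1.15), Mef2c (-1.14), Gnas (-1.06) and Zfp521 (-1.03). Gnas encodes the stimulatory G protein subunit through which Pth1r raises cyclic AMP, and Arrb1 an arrestin that regulates receptor signalling. The rises were Sik2 (1.26), a salt-inducible kinase gene, and Pth2 (1.69), a ligand gene. Pth2 was listed at 0 in every D7 library and had a mean level of 1.69 at D10, under the 3-read level of 2.87, so its call rests on very few reads. Without D10 replicate 1, Sik2 was at 0.99 and Arrb1 at -0.87.

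The largest change of the relay list was that of Ramp2, whose protein partners receptors of the Pth1r class. It went from a mean of 4.91 at D10 to 11.36 at D28, and D28 was above D7 by 4.49 (SE 0.24, adjusted p = 2e-09, limma). Hdac4, which PTHrP signalling directs against hypertrophy, was lower at D28 than at D7 (-1.40, SE 0.12, adjusted p = 3.6e-07), and so was Sik1 (-1.10). Ramp2 is also made by vessels and adipose tissue. The summed level of 6 adipocyte markers ran from 11.94 to 12.20 at D7, from 9.89 to 10.46 at D10, and as high as 15.33 to 15.77 at D28, with no adipocyte marker at 0 at D28, while that of 5 endothelial markers was 4.23 to 5.52 at D7 and 4.39 to 5.09 at D28. The part of these cells in the Ramp2 change was not tested.

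Of 18 tested genes that respond to cyclic AMP in many cell types, 5 rose and 0 fell between D8 and D10. Of all genes, 4.08% were called higher and 5.58% lower in that interval. From D7 to D10, 4 rose and 2 fell, beside 8.50% of all genes called higher and 10.4% lower. The median of the list was 0.32, against 0.053 for all genes. The rises were Ptgs2 (5.03, SE 0.32, adjusted p = 1.5e-08, limma), the cyclooxygenase of inflammation, Areg (7.21), Il6 (3.27) and Crem (1.20). Areg was at a mean of 0.31 at D7, where it rests on few reads. Tnfsf11, the gene of RANKL and a classical target of PTH receptor signalling in osteoblasts, fell and rose again, with -2.47 from D7 to D10 (SE 0.18, adjusted p = 7.1e-08) and 3.46 from D10 to D28. Per1 fell by 1.25. At D28 against D7, Rgs2 was higher (1.73) and Junb (-1.48), Nr4a3 (-1.18) and Sik1 were lower. These genes also answer to other signals.

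**Figure D4:**
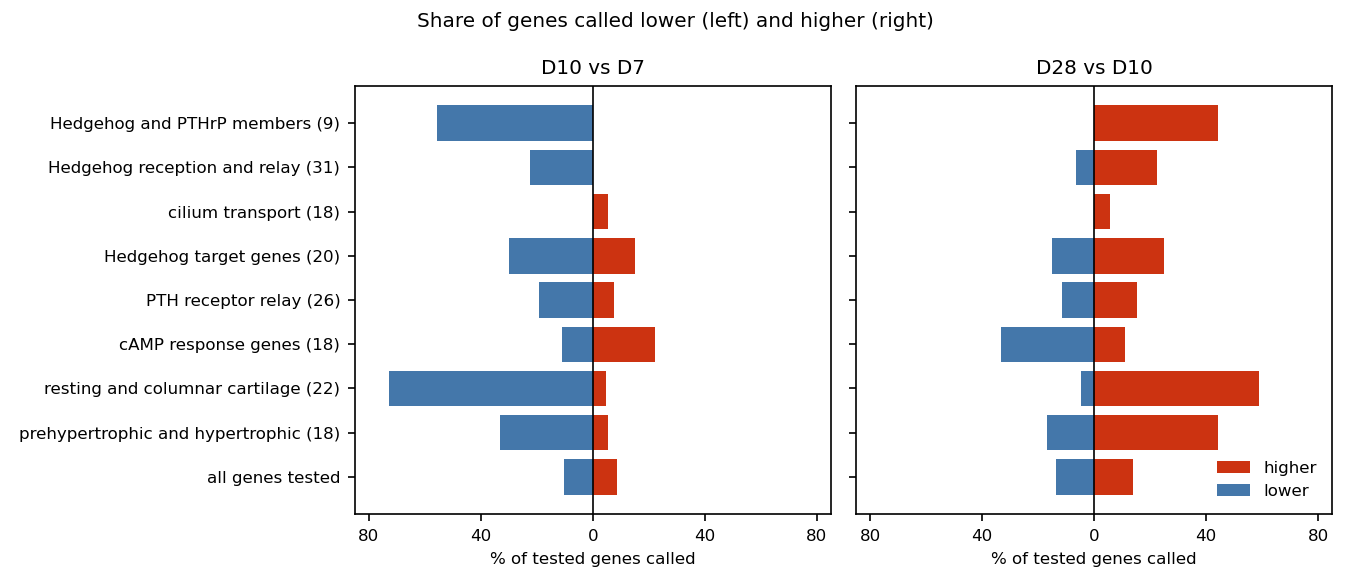
Share of tested genes called lower (left of 0) and higher (right of 0) in D10 vs D7 and in D28 vs D10, in percent, for the 9 genes, the 7 gene lists and all genes tested, with the number tested in brackets. Among the lists, resting and columnar cartilage genes have the largest share lower at D10 (16 of 22). Cilium transport genes have 0 called lower in both comparisons, beside 10.4% and 13.7% of all genes.

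From D8 on, the fall and return of Ihh and Pth1r went along with those of the cartilage genes. In D8 against D7, Ihh (-1.83) and Pth1r (-0.83) were already lower, neither of them called. The resting and columnar cartilage list then had 1 gene higher and 1 lower, with a median of -0.081. Of 22 genes of resting and columnar cartilage, 16 fell and 1 rose from D7 to D10, with a median of -1.71. From D10 to D28, 13 rose and 1 fell, with a median of 1.25. Of all genes, 10.4% were called lower and 8.50% higher in the first comparison, and 13.7% and 13.8% in the second. Matn3, of the cartilage matrix, fell by 4.37 between D7 and D10 (SE 0.20, adjusted p = 7.4e-10, limma), and the difference of the Wnt inhibitor gene Sfrp5 was -4.40. The BMP antagonist gene Grem1 rose by 1.73 to D10 and was 3.34 above D7 at D28. At D28 against D7, 8.63% of all genes were called higher and 8.66% lower. Of the cartilage list, 5 were higher, among them Ucma (2.21), and 4 lower, among them Epyc (-2.20) and Chad (-1.88). The list thus ended on both sides of its D7 level. The part of cartilage cell content in the changes of the 9 genes was not tested.

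Prehypertrophic and hypertrophic genes, the stage at which Ihh is made, did not move as 1 group. In D8 against D7, Spp1 was called higher (1.10), and 4 genes were called lower. These were Ibsp (-3.61), Mmp13 (-2.64), Panx3 (-1.43) and Alpl (-1.19). Of all genes, 3.23% were called higher and 3.81% lower in that comparison. Of 18 tested, 1 rose and 6 fell from D7 to D10, with a median of -0.40. From D10 to D28, 8 rose and 3 fell, with a median of 0.072. Of all genes, 8.50% were called higher and 10.4% lower in the first comparison, and 13.8% and 13.7% in the second. Ibsp, of the mineralizing matrix, fell by 6.34 to D10 (SE 0.29, adjusted p = 8e-10, limma), and Alpl, the phosphatase of mineralization, had a difference of -3.26, while Spp1 rose by 2.15. Col10a1, the defining collagen of hypertrophic cartilage, had means of 17.27 at D7 and 17.58 at D8, then 18.10 at D10 and 14.28 at D28, and D28 differed from D7 by -2.99 (SE 0.44, adjusted p = 6.1e-05). Foxa2, a factor of hypertrophic differentiation, was 1.94 above D7 at D28 and Panx3 1.69 above, while Ibsp was still lower, at -1.49.

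Other cell types moved as well. The summed level of 7 osteoblast markers was 18.33 to 18.93 at D7, 16.70 to 17.57 at D10 and 17.29 to 17.40 at D28. Nearly all of this sum is Col1a1, a collagen gene that many other cells also express, with a mean of 18.72 at D7 and 17.21 at D10. Other markers of the list went up in the same interval, in which Pth1r fell, and osteoblasts also express Pth1r. The mean level of Bglap, the osteocalcin gene, was 3.21 at D7 and 6.46 at D10, that of Bglap2 3.18 and 7.50, that of Dmp1 5.23 and 8.39, and that of Phex 4.54 and 5.87, each called higher. Sp7, a transcription factor gene of osteoblasts, was called lower, with 10.57 and 9.24. The summed level of 6 skeletal muscle markers was 10.68 to 11.24 at D7 and 6.04 to 6.78 at D28. That of 6 macrophage and leukocyte markers was 10.16 to 10.40 at D7, 10.28 to 10.67 at D10 and 10.16 to 12.17 at D28, where replicate 2 was the high library. Replicate 2 held neither the highest nor the lowest D28 level of Ihh. The part of these cells in the changes of the 9 genes was not tested.

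The genes with the pattern most like each of 4 members were taken over the 12 libraries, as those with the smallest root mean square difference in level after centring, among 12172 candidates. For Ihh these were Kank4 at 0.67, Mest at 0.90 and Serpina3m at 0.94, beside a spread of Ihh itself of 2.62. For Gli1 they were Syt8, Timeless and Col25a1, at 0.29, 0.30 and 0.32 beside a spread of 0.78. Pthlh was closest to Tfcp2l1, Per1 and Osmr, at 0.30, 0.30 and 0.31 beside 0.66. Pth1r was closest to Alpl, Pkdcc and Nrbp2, each at 0.25, beside a spread of 1.08. Alpl went through means of 13.40, 12.21, 10.14 and 12.61 at the 4 time points, against 13.17, 12.33, 10.31 and 12.40 for Pth1r.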

How the data were processed

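RNA of 12 pellet libraries (3 each at D7, D8, D10 and D28) was sequenced by the authors with a stranded kit. The submitters' processing notes name Trimmomatic 0.36, HISAT2, Cufflinks, HTSeq and GRCm38, whereas the study's methods name a human build, and the table lists mouse symbols. The authors equalized the HTSeq counts between libraries and deposited log2 values of the count plus 1, without pooling replicates. Sorted values are nearly equal between libraries, so totals are not kept.

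The 17674 genes that reached a log2 value of 1 in 3 or more libraries were tested with limma 3.58.1 in R 4.3.3 on the values as deposited, with 1 mean per time point, a variance trend, residual degrees of freedom 8 and prior degrees of freedom 7.23. Its two-sided p-values were adjusted by Benjamini-Hochberg over all genes tested, in 6 comparisons. The fold threshold and the level of 0.05 come from the study's methods, which applied 0.05 to unadjusted p-values of a pairwise test. Here it was applied to adjusted p-values from limma, because n is 3. Read counts of low values were read from their rank among the distinct values of a library, which carries counting error only. Positions and exons are of GRCm38, and promoters of RefSeq. The fit was tested on simulated data.

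The members and gene lists were chosen with earlier results of these data known. Named genes are the 9 members, the 2 largest rises and falls per list in D10 or D28 against D7 at a mean level of at least 5, and the 3 nearest patterns of Ihh, Gli1, Pthlh and Pth1r. Alternatives covered the filter, scaling, pseudocount, low values, a replicate block, the study's rule, the fold threshold and each library left out. No sequencing date or batch is given in the labels. The values of 1 list gene that the rule names are not reported here.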

Additional observations from a re-analysis of the deposited data

How the results depend on the processing

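Of the fold changes of the 9 genes and the named list genes, 743 of 768 kept their direction and call in settings other than leaving out a library, and 1106 of 1152 did so with 1 library left out. The cause of the changes was not tested. With the adjusted p alone, 3714 genes were called in D8 against D7 (1244 with the fold threshold), 5096 in D10 against D8 (1708), 7288 in D10 against D7 (3340), 9259 in D28 against D10 (4854), 6592 in D28 against D7 (3057) and 7304 in D28 against D8 (3487), which follows from dropping a criterion. Of the 9 genes it called 3 in D8 against D7, 8 in D10 against D7 and 5 in D28 against D7. With low values raised to the 3-read level, 0 of the 9 were called in D8 against D7. Leaving out 1 library gave 0 to 2 of the 9 in that comparison, 0 of them without D7 replicate 1, D7 replicate 3, D8 replicate 1 or D8 replicate 2.

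Small differences changed sign. With median of ratios scaling, D28 minus D10 was 0.084 for Ptch1 and 0.087 for Gli1, as the median of all genes in that comparison moved from -0.10 to 0.0075. Leaving out 1 library in turn gave a range of -0.12 to 0.044 for Gli3 and D10 minus D7, -0.54 to 0.74 for Ihh and D28 minus D7, -0.084 to 0.61 for Pthlh and D28 minus D8, -0.027 to 0.17 for Gli3 and D10 minus D8, -0.29 to 0.092 for Gli1 and -0.19 to 0.082 for Ptch1 and D28 minus D10, -0.11 to 0.16 for Gli2 and D28 minus D7, and, for D28 minus D8, -0.47 to 0.040 for Hhip and -0.013 to 0.23 for Pth1r. None of these was called as deposited. The list counts stayed within 1.5 times in 1538 of 1680 cases.

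Same-numbered libraries did not deviate together (correlation -0.058 to 0.066 over 18 pairs), so the numbers were not taken to pair them. With the replicate number as a block, 1210, 1691, 3326, 4825, 3030 and 3467 genes were called in the 6 comparisons as ordered above, and 1, 6, 5, 4, 2 and 3 of the 9. Read levels limit Ihh at D10, where 0 to 4 reads were seen per library.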
